A study of Arabidopsis thaliana with 8 samples.

Results

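The genes described here are NdhS and NdhN, which encode subunits of the chloroplast NDH complex, PIFI, which encodes a protein associated with that complex, and CRR21 and OTP85, which encode editing factors for transcripts of plastid ndh genes. Each is measured by 1 probe whose annotation gives that gene and no other, so the group holds 5 of the 692 single-gene probes among 3439 probes on the array. The probes are 77 for NdhS (AT4G23890), 2514 for NdhN (AT5G58260), 1037 for PIFI (AT3G15840), 1947 for CRR21 (AT5G55740) and 4499 for OTP85 (AT2G02980). Total RNA of the Arabidopsis thaliana tic40 mutant in ecotype Columbia 0 (4 samples) was set against total RNA of wild type in the same ecotype (WT, 4 samples), with 1 array per sample. According to the labels, tic40 plants import proteins poorly across the inner envelope of the chloroplast. They give no tic40 allele, tissue, age or growth condition, and do not say whether samples came from separate plants, so the p-values below speak only of the variation among these 8 samples, part or all of which could be technical.

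The chloroplast NDH complex sits in the thylakoid membrane and passes electrons from ferredoxin to plastoquinone, which returns electrons to the chain in cyclic flow around photosystem I and feeds chlororespiration. Its subunits come from plastid genes and from nuclear genes, and the nuclear-encoded ones, like PIFI, CRR21 and OTP85, must be imported into the chloroplast. NdhS is the subunit that helps form the ferredoxin-binding site, and NdhN belongs to the stroma-facing subcomplex A. PIFI is named for the post-illumination increase in chlorophyll fluorescence, a readout of electron flow through NDH in the dark. CRR21 and OTP85 are pentatricopeptide repeat (PPR) proteins, each needed for a C-to-U change in the ndhD transcript, which codes for a membrane subunit of the complex. The arrays measured transcripts, not import, editing or protein.

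The deposited intensities are on a relative linear scale with array medians of 0.354 to 0.604. WT samples 1 and 2 had the lowest medians, 0.361 and 0.354, against 0.559 to 0.604 on the remaining arrays. Across probes WT samples 1 and 2 and WT samples 3 and 4 stood apart from each other (r of 0.707 to 0.722 after quantile normalization). The tic40 samples correlated with WT samples 1 and 2 at 0.874 to 0.907 and with WT samples 3 and 4 at 0.739 to 0.800. By these correlations WT samples 3 and 4 were the more distant pair, whereas by array medians it was WT samples 1 and 2. Differences are therefore also given for samples 1 and 2 and for samples 3 and 4, in fits that called 30.5% and 60.3% of all probes after normalization and measure only the spread within such pairs. Levels below are deposited intensities or quantile-normalised intensities, as stated, and differences are tic40 minus WT on the log2 scale of normalised values unless stated otherwise. A call is a limma adjusted p under 0.05 over 3318 tested probes.

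Of the 5 genes 0 were called by limma, where 7.69% of all tested probes were called (2.32% higher and 5.36% lower in tic40). Before adjustment 0 of the 5 had a p under 0.05, a level that 24.2% of all tested probes reached. With sample number as a replicate block 0 of the 5 and 0.151% of all tested probes were called. The log2 difference was above 0 for NdhN, PIFI, CRR21 and OTP85 and below 0 for NdhS, and above 0 for 45.5% of all tested probes. The median over the 5 genes was 0.28, and over all tested probes it was -0.061. After normalization the tic40 and WT values overlapped for each of the 5 genes, while the groups did not overlap at 21.8% of all tested probes. A missed threshold does not show equal levels: the 95% intervals allowed a tic40 to WT fold of 0.781 to 1.89 for NdhN, 0.588 to 8.27 for PIFI, 0.813 to 2.18 for CRR21 and 0.805 to 1.63 for OTP85. For NdhS, whose normalised values hardly vary for the reason given below, the interval was 0.647 to 1.16 as deposited and 0.420 to 1.097 with median centring.

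**Figure D1:**
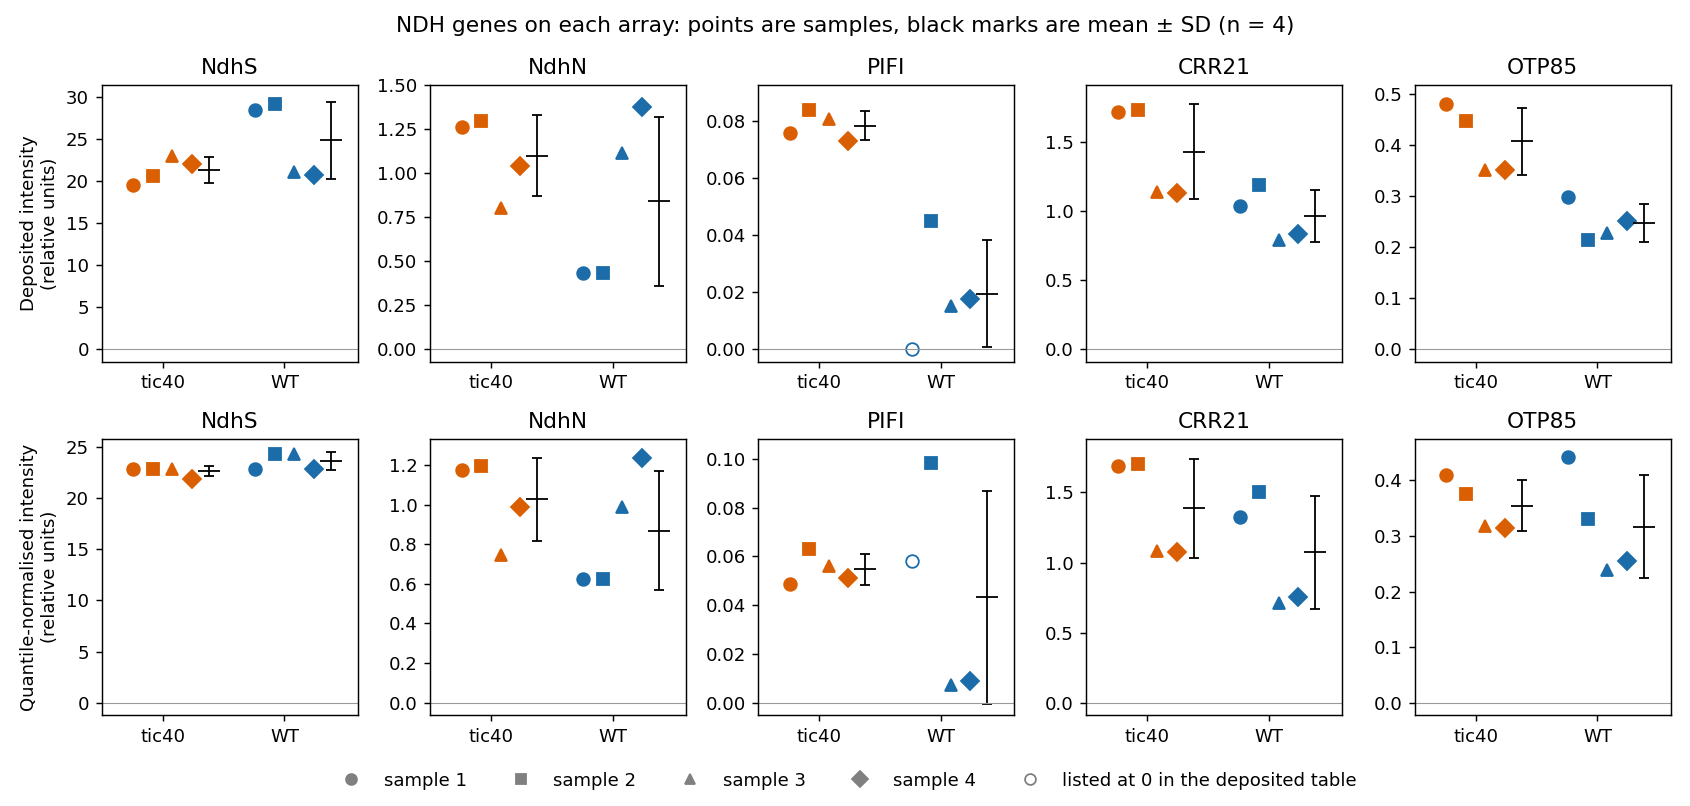
Intensity of the 5 NDH genes in each sample, in relative units, as deposited (top row) and after quantile normalization (bottom row), with tic40 left of WT. Points are samples 1 to 4, the open point marks PIFI in WT sample 1, listed at 0, and black marks are mean ± SD (n = 4). As deposited, tic40 values lie above all WT values for PIFI and OTP85, and after normalization the groups overlap for all 5 genes.

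**Figure D2:**
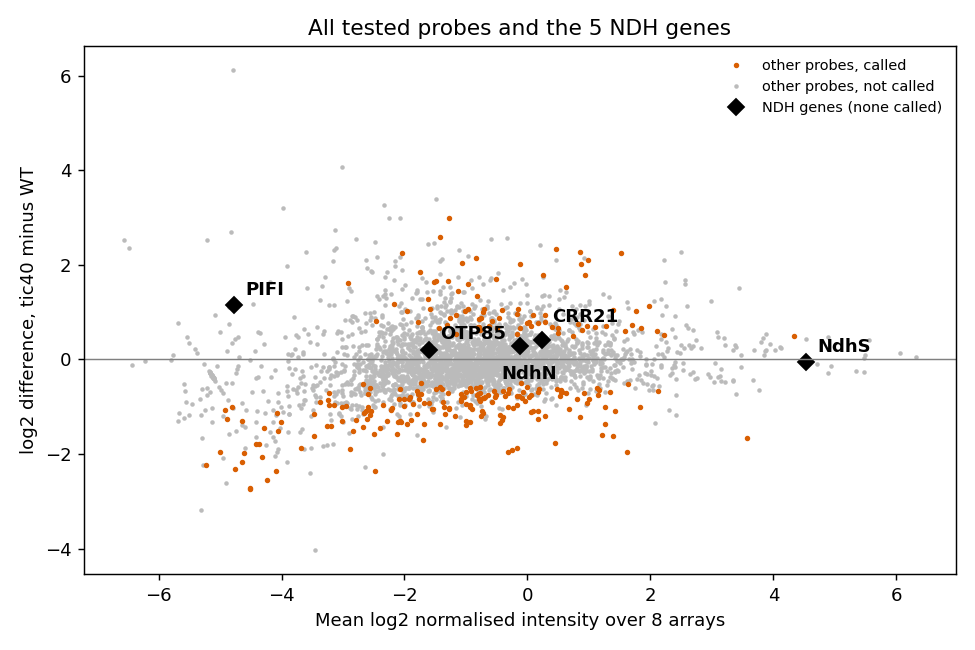
The log2 difference, tic40 minus WT, of each of 3318 tested probes against its mean log2 normalised intensity over 8 arrays. Black diamonds are the 5 NDH genes, none of which was called. PIFI lies at the dim end and NdhS at the bright end.

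Among the subunits of the complex, NdhS had deposited intensities of 19.5, 20.6, 23.0 and 22.1 in tic40 samples 1 to 4, against 28.5, 29.2, 21.1 and 20.8 in WT samples 1 to 4. WT samples 1 and 2 were thus the highest of the 8, and the tic40 values lay around those of WT samples 3 and 4. As deposited, the mean was 21.3 ± 1.54 in tic40 and 24.9 ± 4.57 in WT (SD, n = 4 each). NdhS ranked between 12 and 14 from the brightest probe on every array. Quantile normalization gives equal ranks equal values, so the normalised intensity of NdhS could hardly vary: it was 22.9, 22.9, 22.9 and 21.9 in tic40 and 22.9, 24.4, 24.4 and 22.9 in WT. The normalised difference was -0.061 with SE 0.11 (limma adjusted p = 0.770), and it was -0.045 in samples 1 and 2 and -0.077 in samples 3 and 4.

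Without the quantile step the NdhS values were more spread. As deposited the difference was -0.21 (adjusted p = 0.534), and with each array centred on its median it was -0.56 (adjusted p = 0.316), the largest size for NdhS among the fits over all 8 arrays. The deposited ratio of tic40 to WT was 0.686 and 0.706 for samples 1 and 2 and 1.09 and 1.06 for samples 3 and 4. In the deposited values of samples 1 and 2 alone the difference was -0.52 (limma adjusted p = 0.0141, where 65.2% of probes were called), while the median of all probes in that fit was 0.70. In those of samples 3 and 4 alone it was 0.11 (adjusted p = 0.270, where 61.1% were called). The effect in samples 1 and 2 minus that in samples 3 and 4 was -0.63 as deposited (interaction adjusted p = 0.00341, a call that 64.7% of probes shared) and 0.032 after normalization (adjusted p = 0.833).

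NdhN, the other measured subunit, had normalised intensities of 1.18, 1.19, 0.744 and 0.990 in tic40 samples 1 to 4, against 0.622, 0.626, 0.989 and 1.24 in WT samples 1 to 4. The lowest values were those of WT samples 1 and 2 and the highest that of WT sample 4, so WT enclosed all tic40 values. The mean was 1.03 ± 0.209 in tic40 and 0.868 ± 0.300 in WT (SD, n = 4 each), with a difference of 0.28 and SE 0.28 (adjusted p = 0.565).

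The small overall difference of NdhN was made of opposite ones. In samples 1 and 2 tic40 was higher by 0.92 (limma adjusted p = 0.0145, where 30.5% of probes were called). In samples 3 and 4 the difference was -0.36 (adjusted p = 0.202). The effect in samples 1 and 2 minus that in samples 3 and 4 was 1.29 with SE 0.24 (interaction adjusted p = 0.00709), and 51.7% of all tested probes passed the same test. The deposited values gave the same directions, with tic40 to WT ratios of 2.93 and 2.996 for samples 1 and 2 and 0.718 and 0.753 for samples 3 and 4. In the deposited values of samples 1 and 2 the difference was 1.57, or 0.87 above the median of all probes there, which was 0.70. In those of samples 3 and 4 it was -0.44, or -0.34 relative to the median there. The WT samples carried most of the contrast. The deposited mean of WT samples 1 and 2 was 0.347 times that of WT samples 3 and 4, whereas in tic40 the same ratio was 1.39. The WT ratio includes the lower array medians of WT samples 1 and 2, and it was 0.561 after normalization.

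PIFI was near the lower limit of the arrays. Its deposited intensity was 0.0756, 0.0840, 0.0808 and 0.0729 in tic40 samples 1 to 4, against 0 in WT sample 1 and 0.0450, 0.0150 and 0.0177 in WT samples 2 to 4. The 4 tic40 values thus agreed closely and lay above all WT values, a separation that 21.4% of probes showed in the same direction as deposited. On all 8 arrays PIFI lay under percentile 5 of the values above 0, and on 3 WT arrays (the one listed at 0 among them) under percentile 1. Its level is therefore poorly measured in both genotypes, and most of all in WT.

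Normalization changed the order of the PIFI values. WT samples 1 and 2 held 260 and 277 zeros, against 174 to 204 on the other arrays, and zeros were ranked with the other values in the quantile step. The normalised intensities were 0.0487, 0.0630, 0.0561 and 0.0513 in tic40, against 0.0583, 0.0983, 0.00730 and 0.00892 in WT samples 1 to 4, where 0.0583 is the floor that stands for the 0. WT sample 2 then lay above all tic40 samples and WT samples 3 and 4 far below them. The 0 of WT sample 1, once set to its floor, also lay above WT samples 3 and 4, which had been listed above 0. In WT samples 3 and 4 PIFI lay below the floors of those arrays (0.0177 and 0.0147). It was thus scored lower there than probes listed at 0. The mean was 0.0548 ± 0.00630 in tic40 and 0.0432 ± 0.0437 in WT (SD, n = 4 each), with a difference of 1.14 and SE 0.83 (limma adjusted p = 0.426).

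The call of PIFI depended on the scaling, and the size of its difference also on the floor. As deposited its difference was 1.94 (limma adjusted p = 0.0178, where 10.8% of probes were called), or 1.62 above the median of all probes in that fit, which was 0.32. With sample number as a replicate block the same deposited values gave an adjusted p = 0.0659, where 0% of probes were called. With median centring the difference was 1.59 (adjusted p = 0.0751, where 7.14% of probes were called). In the normalised values it was 1.64 with 1 common floor for all arrays (adjusted p = 0.238). With zeros left out of the quantile step it was 0.99 with SE 0.37 (limma adjusted p = 0.159). How far the ranking of zeros shaped the normalised differences of the sample pairs given below was not tested. A floor at percentile 5 that also raises low values above 0 replaces every PIFI value by the floor of its array, so it holds no measurement of PIFI. After normalization the difference was -0.45 in samples 1 and 2 (adjusted p = 0.348) and 2.73 in samples 3 and 4 (adjusted p = 0.00259, where 60.3% of probes were called), and the effect in samples 1 and 2 minus that in samples 3 and 4 was -3.18 (interaction adjusted p = 0.00180). As deposited the pairs gave 1.65 (adjusted p = 0.0940) and 2.24 (adjusted p = 0.00222, where 61.1% of probes were called), and the same contrast was -0.59 (interaction adjusted p = 0.502).

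Of the editing factors, CRR21 had normalised intensities of 1.69, 1.70, 1.08 and 1.08 in tic40 samples 1 to 4, against 1.33, 1.502, 0.711 and 0.751 in WT samples 1 to 4. Samples 1 and 2 were above samples 3 and 4 in each genotype, and tic40 was above the WT sample of the same number in 4 of 4 cases, as at 16.2% of all tested probes. The mean was 1.39 ± 0.354 in tic40 and 1.07 ± 0.401 in WT (SD, n = 4 each), with a difference of 0.41 and SE 0.31 (limma adjusted p = 0.439). With sample number as a replicate block the difference was the same, and the 95% interval narrowed to 0.05 to 0.78, against -0.30 to 1.13 without it. It still missed the threshold (adjusted p = 0.159, where 0.151% of probes were called).

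The deposited intensities of CRR21 were 1.72, 1.73, 1.13 and 1.13 in tic40 and 1.03, 1.19, 0.787 and 0.831 in WT. The ratios for samples 1 to 4 were 1.66, 1.45, 1.44 and 1.36, and 31.6% of all tested probes likewise had all 4 ratios above 1. As deposited the difference was 0.56 (adjusted p = 0.170), or 0.24 above the median of all probes. In the deposited values of samples 1 and 2 it was 0.64, which was -0.063 relative to the median of all probes there, and in those of samples 3 and 4 it was 0.48, or 0.58 relative to the median of all probes there. In the normalised values the difference was 0.26 in samples 1 and 2 (adjusted p = 0.135) and 0.56 in samples 3 and 4 (adjusted p = 0.00817, where 60.3% of probes were called), and the difference between the pairs did not pass (interaction adjusted p = 0.0905).

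OTP85 had deposited intensities of 0.481, 0.447, 0.352 and 0.351 in tic40 samples 1 to 4, against 0.300, 0.214, 0.228 and 0.251 in WT samples 1 to 4. All tic40 values lay above all WT values, as at 21.4% of all tested probes. The ratios for samples 1 to 4 were 1.603, 2.09, 1.54 and 1.40, and 31.6% of all tested probes had all 4 above 1. The deposited difference of 0.71 just missed the threshold (limma adjusted p = 0.0511) and was 0.39 above the median of all probes.

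After normalization OTP85 stood at 0.409, 0.376, 0.318 and 0.314 in tic40, against 0.442, 0.331, 0.239 and 0.255 in WT. WT sample 1 became the highest of the 8, and the groups overlapped. The mean was 0.354 ± 0.0462 in tic40 and 0.317 ± 0.0926 in WT (SD, n = 4 each), with a difference of 0.20 and SE 0.22 (adjusted p = 0.610). The difference was 0.04 in samples 1 and 2 (adjusted p = 0.890) and 0.36 in samples 3 and 4 (adjusted p = 0.0237, where 60.3% of probes were called), without a call for the difference between these pairs (interaction adjusted p = 0.238).

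**Figure D3:**
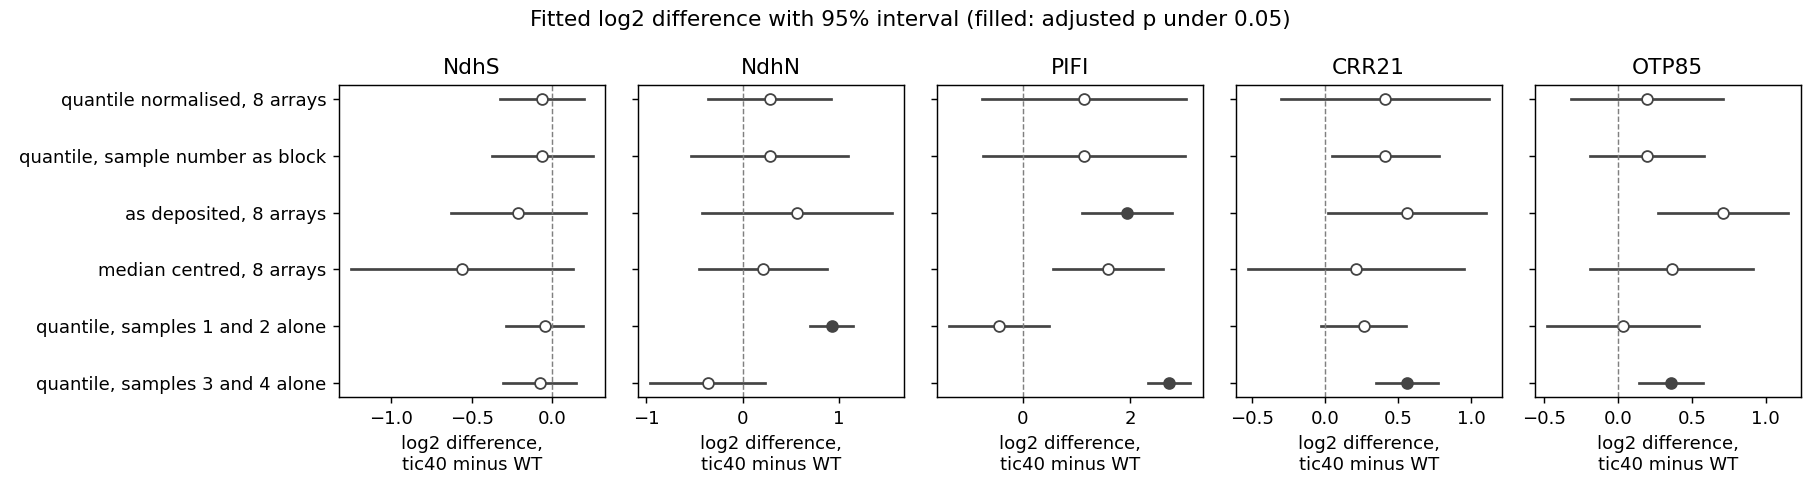
Fitted log2 difference, tic40 minus WT, of each NDH gene with its 95% interval under the settings named on the left. Filled points have a limma adjusted p under 0.05: PIFI as deposited (1.94), NdhN in samples 1 and 2 alone (0.92), and PIFI (2.73), CRR21 (0.56) and OTP85 (0.36) in samples 3 and 4 alone. These fits called 10.8%, 30.5% and 60.3% of all probes. The x scales differ between genes.

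The WT samples that enter the fit decided several of these values. With WT samples 1 and 2 left out, PIFI was higher in tic40 by 2.76 (limma adjusted p = 0.000112), CRR21 by 0.89 (adjusted p = 0.0252) and OTP85 by 0.51 (adjusted p = 0.0242), in a fit that called 55.2% of all probes. NdhN then had a difference of -0.13 (adjusted p = 0.642). With WT samples 3 and 4 left out, none of the 5 passed in a fit that called 29.7% of all probes. NdhN then had a difference of 0.69 (adjusted p = 0.0561), PIFI -0.47 (adjusted p = 0.172), CRR21 -0.061 (adjusted p = 0.869) and OTP85 -0.12 (adjusted p = 0.639). In the normalised values WT samples 1 and 2 were above WT samples 3 and 4 in their means by 1.93 times for CRR21 and 1.57 times for OTP85, and were 0.561 times as high for NdhN. In the deposited values these ratios were 1.37, 1.07 and 0.347. No such ratio is given for PIFI, since WT sample 1 is a floor and WT samples 3 and 4 lie under percentile 1.

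Samples 1 and 2 also differed from samples 3 and 4 within tic40. The deposited means of tic40 samples 1 and 2 were 1.52 times those of tic40 samples 3 and 4 for CRR21, 1.32 times for OTP85 and 1.39 times for NdhN, and 1.04 times for PIFI and 0.891 times for NdhS. For CRR21 and OTP85 the ratio was above 1 in both genotypes, and for NdhN it was above 1 in tic40 and below 1 in WT. For OTP85 in WT the deposited ratio was only 1.07 and rested on sample 1 (0.300). As deposited, WT sample 2 (0.214) lay below WT samples 3 and 4 (0.228 and 0.251). These values include the lower array medians of WT samples 1 and 2. After normalization OTP85 in WT sample 2 (0.331) lay above WT samples 3 and 4 (0.239 and 0.255), and the ratio was 1.57. The labels give no difference between the numbered samples.

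Lists of genes of the complex and of related plastid functions held 71 names. Among them were 31 NDH subunits, 10 assembly and associated factors and 11 factors for editing or processing of ndh transcripts. The rest were 16 other plastid editing factors and 3 proteins of the PGR5 route, the other path of cyclic electron flow. Single-gene probes measured 9 of the 71, the 5 genes above and 4 others. A further 5 were measured only by probes that carry other genes as well and are not used. Of the 9, 0 passed (7.69% of all tested probes did), 2 had an unadjusted p under 0.05 (24.2% of all tested probes), and the difference was above 0 for 8 (45.5% of all tested probes). Their median was 0.41, and 0.79 for the 4 others, against -0.061 for all tested probes. Of those 4 others, 2 are on the list of other plastid editing factors, so these medians are not of NDH genes alone.

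Cpn60beta4, a chaperonin subunit that chloroplasts need to assemble the NDH complex, was the only one of the 9 whose tic40 values (0.425, 0.348, 0.357 and 0.361) all lay above its WT values (0.308, 0.284, 0.287 and 0.280) after normalization, as at 8.35% of all tested probes. Its difference was 0.36 with SE 0.13 (limma adjusted p = 0.132). As deposited it was 0.87 (adjusted p = 0.0397, and 0.101 with the replicate block). The deposited fit without the block called 10.8% of all probes and had a median of 0.32. With the block the normalised values gave an adjusted p = 0.161. CRR41, an assembly factor of subcomplex A, stood at 0.833, 0.884, 0.509 and 0.445 in tic40, against 0.668, 0.770, 0.0917 and 0.114 in WT (difference 1.24, adjusted p = 0.333). WT samples 3 and 4 were its lowest values. AT3G22690 and AT3G22150, which stand on the list of other plastid editing factors from background knowledge and have no name in the gene table, had differences of 0.77 (adjusted p = 0.180) and 0.82 (adjusted p = 0.303). As deposited AT3G22690 passed (1.44, adjusted p = 0.0150, and 0.0656 with the replicate block), in the fit that called 10.8% of all probes and had a median of 0.32. In samples 1 and 2 alone the normalised differences were 0.38 for Cpn60beta4, 0.26 for CRR41, 0.17 for AT3G22690 and 0.66 for AT3G22150. Of these, that of AT3G22150 passed, in a fit that called 30.5% of all probes. In samples 3 and 4 alone the differences were 0.34, 2.22, 1.36 and 0.98 in the same order. All 4 passed in that fit, which called 60.3% of all probes.

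The single-gene probes whose pattern over the 8 arrays was most like each NDH gene were found by the root mean square distance between log2 normalised values, each probe centred on its own mean, among 611 probes above 0 on every array (612 for PIFI). For NdhN the nearest were AT5G02850 at 0.12 and THIC, an enzyme of thiamine synthesis, at 0.17, against a median distance of 0.51. For CRR21 they were TCP15, a TCP-family transcription factor, at 0.16 and DME, a DNA glycosylase that removes methylated cytosine, at 0.17, against a median of 0.63. For OTP85 they were AT3G25410 at 0.13 and AT3G29410 at 0.14 (median 0.51), for PIFI AT2G30100 at 0.32 and AT3G23940 at 0.33 (median 1.38), and for NdhS AT1G17160 and AT5G49590, both at 0.08 (median 0.39). Since the normalised values of NdhS hardly vary, a small distance to it marks only probes that also vary little. The PIFI pattern holds a floor in WT sample 1 and values under percentile 1 in WT samples 3 and 4, so likeness to it is poorly measured. None of these 10 probes was called between tic40 and WT. In the deposited values AT5G02850 for NdhN and AT3G25410 for OTP85 were again among the nearest 2, and the other 8 were not. No NDH gene was among the nearest 2 of another, a place that PIFI could not take, since it is listed at 0 in WT sample 1.

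**Figure D4:**
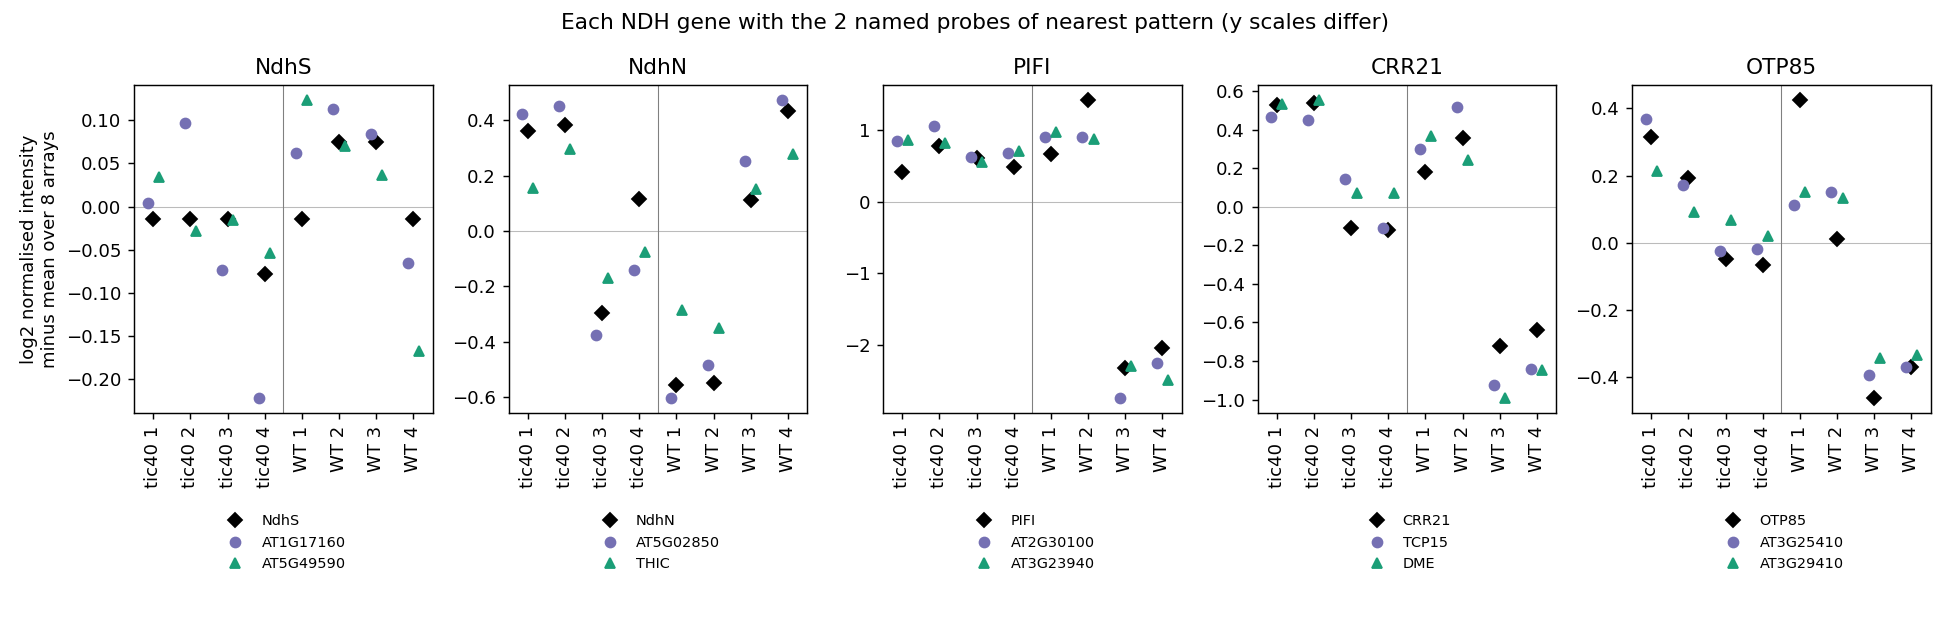
Log2 normalised intensity on each array minus the probe's mean over 8 arrays, for each NDH gene (black diamonds) and its nearest 2 single-gene probes (circles and triangles), with tic40 samples left of WT samples. The lowest points of PIFI, CRR21 and OTP85 are WT samples 3 and 4, and those of NdhN are WT samples 1 and 2.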

How the data were processed

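One value per probe and array was deposited for 8 arrays. Judged from the values, the deposited intensities are linear and never negative. How the scanner output was background corrected and scaled is not given in the sources used here. Precision is limited by there being 4 arrays per genotype. The members and gene lists were chosen with earlier results of these data known.

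The log2 medians of the arrays spanned 0.72, above the limit of 0.1 set for leaving the table unscaled, so intensities were quantile normalised. Deposited zeros were then set to percentile 1 of the array's positive values (0.0147 to 0.0665) and log2 was taken. The test left out 121 probes that are 0 throughout. Differences were fitted with limma 3.58.1 in R 4.3.3 (lmFit, eBayes, genotype as the only term, two-sided, Benjamini-Hochberg over 3318 probes).

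Same-numbered tic40 and WT samples deviated together across probes (r of 0.306, 0.310, 0.261 and 0.254), above the limit of 0.1 for taking the numbers as pairs. The reported fit has no block, and the fit with the number as a block is an alternative. The labels do not say what the number marks.

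Gene names came from the platform annotation (692 probes with 1 gene, 870 with several, 1877 with none), and the TAIR10.1 gene table, used for names only, holds 690 of the single names. Of the 71 listed names, 59 have an entry there. No coordinates are given, since no build is stated for the probes. All 5 members are named, with each listed gene measured by a single-gene probe and the 2 probes nearest to each member in pattern. Other settings changed the scaling, the floor, the filter on zeros, the samples, the block and the eBayes options.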

Additional observations from a re-analysis of the deposited data

Results flagged for a closer look

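The normalised NdhS intensity of tic40 sample 4 (21.9) stood apart from the other 3 tic40 samples, which share 1 value because NdhS has rank 13 on those arrays and rank 14 on this one. The deposited NdhS values of tic40 (19.5, 20.6, 23.0 and 22.1) do not set sample 4 apart.

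The effect of tic40 on NdhN differed between samples 1 and 2 and samples 3 and 4. The effect in samples 1 and 2 minus that in samples 3 and 4 was 1.29 on the log2 scale (limma interaction adjusted p = 0.00709), with tic40 higher in 2 of 2 cases in samples 1 and 2 and lower in 2 of 2 in samples 3 and 4. For PIFI it was -3.18 (interaction adjusted p = 0.00180), and -0.59 in the deposited values (adjusted p = 0.502). The test was added after the data had been seen, 51.7% of all tested probes passed it after normalization, and what sets these samples apart was not tested.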

How the results depend on the processing

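Over 25 alternatives per gene (24 for PIFI, which has no value among probes above 0 on all arrays), 23 for NdhS, 20 each for NdhN, CRR21 and OTP85 and 17 for PIFI kept the direction and stayed uncalled. As deposited (10.8% of probes called) PIFI passed (1.94), so 1 gene was called. With the floor at percentile 5 PIFI stood at -0.16, a value that compares only the floors of the arrays. In samples 1 and 2 alone (30.5% of probes called) 1 gene was called (NdhN 0.92) and PIFI turned to -0.45. In samples 3 and 4 alone (60.3%) 3 were called (PIFI 2.73, CRR21 0.56, OTP85 0.36) and NdhN turned to -0.36. Without WT samples 1 and 2 (55.2%), 3 were called (PIFI 2.76, CRR21 0.89, OTP85 0.51) and NdhN turned to -0.13. Without WT samples 3 and 4, PIFI turned to -0.47, CRR21 to -0.061 and OTP85 to -0.12. The deposited values of samples 1 and 2 alone, added after the data had been seen, called 4 genes and 65.2% of probes (NdhS -0.52, NdhN 1.57, CRR21 0.64, OTP85 0.87), and those of samples 3 and 4 alone called 3 and 61.1% of probes (PIFI 2.24, CRR21 0.48, OTP85 0.55), with NdhS at 0.11 and NdhN at -0.44. Leaving out 1 sample in turn called none of the 5, in fits that called only 43 to 240 of the 3318 tested probes. The differences were -0.076 to -0.045 for NdhS, 0.14 (without WT sample 1) to 0.47 (without WT sample 4) for NdhN, 0.56 (without WT sample 3) to 1.81 (without WT sample 2) for PIFI, 0.24 (without WT sample 3) to 0.60 (without WT sample 2) for CRR21 and 0.077 (without WT sample 3) to 0.37 (without WT sample 1) for OTP85.

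Over all probes 255 were called, and leaving out 1 sample in turn gave 43 to 240 (43, 45, 54 and 44 without tic40 samples 1 to 4, 127 and 122 without WT samples 3 and 4). The count was 1012 in samples 1 and 2 alone, 2000 in samples 3 and 4 alone, 1833 without WT samples 1 and 2, 985 without WT samples 3 and 4, and 2164 and 2027 in the deposited values of samples 1 and 2 and of samples 3 and 4. With the replicate block it was 5, and the block changed no call of the 5 genes in the normalised values (differences of -0.061, 0.28, 1.14, 0.41 and 0.20 for NdhS, NdhN, PIFI, CRR21 and OTP85). In limma fits with the block it was 0 in the deposited values (887 had an unadjusted p under 0.05) and 0 in the median-centred values (739), and with samples averaged to 2 per genotype it was 0 (184). The cause of these changes was not tested.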
